A study of Mus musculus with 3 samples.

Results

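The shortest Cbx2 peaks are all regions of the deposited peak table that span 400 bp, counted as end minus start plus 1. They number 428 of 2217 peaks (19.3%), lie on all 20 chromosomes of the table and cover 171.2 kb, or 3.04% of the bases in peaks. The rule used length alone and neither signal column. Peak length is itself set when peaks are called from reads, so length classes need not be independent of signal. Peaks were profiled by chromatin immunoprecipitation and sequencing (ChIP-seq) in C3H10T1/2 cells, a mouse embryo-derived mesenchymal progenitor line, grown in medium with 10% serum and used between passages 10 and 15. One Cbx2 library came from cells that stably express FLAG-HA-tagged wild-type histone H3.3 (WT). The other came, by its title, from cells expressing H3.3 with methionine in place of lysine 36 (K36M), although the genotype label of that library also names wild-type H3.3. The labels do not say whether the cells' own H3 genes were altered or whether each line is a clone. An input DNA library from the WT cells was part of the series, but the table has no column for it. There was 1 Cbx2 library per group, so replicate spread is unknown for every difference below and no p-value is given.

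Cbx2 is one of the chromodomain proteins that can occupy the same position in canonical Polycomb repressive complex 1. Its chromodomain binds histone H3 trimethylated at lysine 27, the mark laid down by Polycomb repressive complex 2, and its remaining sequence can compact nucleosomes. Polycomb proteins in progenitor cells are known for broad domains over silent developmental genes, and for narrower sites at CpG-rich promoters. The K36M histone acts dominantly against enzymes that methylate lysine 36 of H3, a mark that hinders methylation of lysine 27 on the same tail. The comparison addresses where Cbx2 lies in cells carrying each histone. The table names no genes and no mm9 genome was used here, so the peaks are given by their mm9 position, without sequence or annotation.

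At the 400 bp peaks, Cbx2 signal was low in both libraries and lower in K36M at most of them. The WT library had a median of 0.922 reads per 1000000 library reads (RPM) in each peak, with quartiles of 0.854 and 1.02 RPM and a range from 0.649 to 2.63 RPM. The K36M library had a median of 0.386 RPM, with quartiles of 0.269 and 0.552 RPM and a range from 0.0552 to 4.03 RPM. The WT values were packed closely together above a floor that all peaks in the table pass, while the K36M values had no such floor and spread more widely around a lower centre. A floor in WT alone can by itself tilt counts and ratios towards lower K36M signal, here and below, most of all near the floor. How much it does so was not tested. Signal was below WT at 412 peaks and above it at 16 (3.74%), against 4.6% above WT among all 2217 peaks. The share of short peaks with more K36M signal was therefore close to that of the whole table.

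**Figure D1:**
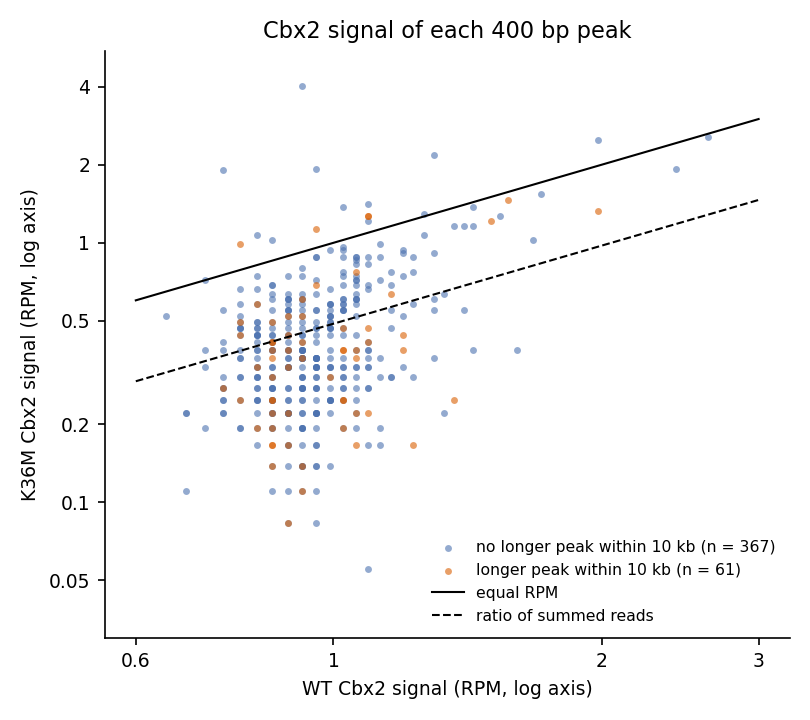
Cbx2 signal of each of the 428 peaks of 400 bp in the WT library (horizontal, RPM, log axis) and the K36M library (vertical, RPM, log axis), coloured by whether a longer peak lies within 10 kb. Each point is 1 peak, and points overlap because reads are whole. The solid line is equal signal and the dashed line the ratio of summed reads, 0.488; 16 peaks lie above the solid line, one of them just above it.

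These values rest on few reads, and counting error sets how much can be read from a single peak. Reads follow from the RPM values, since 1 read is a fixed step in each library. The median was 27 reads in WT, with a range of 19 to 77, and 14 reads in K36M, with a range of 2 to 146. In WT the SD of the reads per peak was 5.85 over the 428 peaks, against 5.34, the square root of the mean. In K36M the SD was 13.5 against 4.15, and 12.0 without the peak with the most reads. No peak in the table falls under 9.5 WT reads per 200 bp, and no such floor holds in K36M, so the 2 spreads cannot be compared as evenness of binding. The floor can also narrow the WT SD, so its closeness to 5.34 does not show that WT varied by counting alone. Taken separately for each library, the 43 peaks with the most reads held 14.5% of the reads in WT and 27.8% in K36M. Across the 428 peaks, which share both libraries, WT and K36M reads correlated with r = 0.51 (Pearson) and rho = 0.30 (Spearman).

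For a single 400 bp peak the 95% exact (Clopper-Pearson) interval of the K36M/WT ratio, given the reads of both libraries together, ran over a 4.16-fold range at the median. The narrowest interval spanned 1.87-fold and the widest 33.8-fold. Among peaks of 600 bp the median width was 3.26-fold, and among those of 5200 bp or longer it was 1.38-fold. The interval lay wholly below 1 at 288 of the 400 bp peaks (67.3%), against 86.8% of all peaks. At 4 peaks (0.935%) it lay wholly above 1, against 2.75% of all peaks. The remaining 136 (31.8%) could not be told from equal signal at this depth, 124 of them with less and 12 with more signal in K36M. For peaks longer than 400 bp that share was 5.37%. Copies made by PCR were not marked with molecular identifiers, so reads need not be separate molecules, and these intervals cover counting error only.

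Summed over the 428 peaks, 12204 WT reads and 7367 K36M reads gave a ratio of K36M to WT of 0.488, with an exact 95% interval from 0.474 to 0.502. When K36M was rescaled so that both libraries had equal medians, upper quartiles or sums over all peaks, that ratio became 1.41, 1.39 or 1.18, so the lower K36M signal holds only relative to library size. The median log2 ratio, with a pseudocount of 0.1 RPM in both libraries, was -1.12 (95% binomial interval over peaks -1.20 to -1.02), and 0.20 after rescaling to equal medians. K36M was at least 2-fold below WT at 239 peaks (55.8%), against 75.3% of all peaks, and at least 2-fold above it at 2 peaks (0.467%), against 0.271%. A pseudocount of 1 RPM, close to the signal of these peaks, left 0 peaks at least 2-fold lower. Of the 428 single-peak intervals, 81 (18.9%) did not hold 0.488, with 38 above and 43 below it.

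The K36M/WT ratio of short peaks was higher than that of longer ones, which on the RPM scale means nearer to equal signal. The 1789 peaks longer than 400 bp had a median log2 ratio of -1.52, which is lower by 0.40 than that of the 400 bp peaks. Without a pseudocount, which weighs most on few reads, the medians were -1.31 and -1.59, and the difference was 0.28. After rescaling to equal medians, the medians with the pseudocount were 0.20 and -0.060 and the summed ratios 1.41 and 1.19, so the short peaks still had the higher ratio but the longer ones were nearer to equal signal. The class next in length, 193 peaks of 600 bp, had a median of -1.42 without a pseudocount (interval -1.54 to -1.27), which overlaps that of the 400 bp peaks (-1.41 to -1.20). Summed reads gave ratios of 0.488 at 400 bp, 0.474 at 600 bp (0.457 to 0.491), 0.468 at 800 bp (0.450 to 0.487) and 0.477 at 1000 bp (0.462 to 0.493). All peaks of 600 to 5000 bp together had 0.462, and those of 5200 bp or more had 0.357. By this measure the 400 bp peaks were close to those of 600 to 1000 bp, and the peaks of 5200 bp or more stood apart. Across the length limit itself, WT reads ran from 19 to 77 inside it and from 32 to 132 among the 600 bp peaks, with medians of 27 and 40. Peaks from 1 pair of libraries are not replicates, so these differences between length classes carry no test.

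Read density separates the libraries. Per 200 bp, the 400 bp peaks had a median of 13.5 reads in WT, with quartiles of 12.5 and 15.0, and all peaks had 13.8. In K36M the 400 bp peaks had a median of 7.0 reads per 200 bp, with quartiles of 4.88 and 10.0, against 6.0 over all peaks and 5.62 for peaks of 5200 bp or more. The short peaks were thus about as dense as longer ones in WT and a little denser in K36M, in raw reads of each library. The lowest WT density of any peak in the table, 9.5 reads per 200 bp, was that of a 400 bp peak on chromosome 8 (chr8:73417400-73417799, mm9) with 19 reads in each library.

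**Figure D2:**
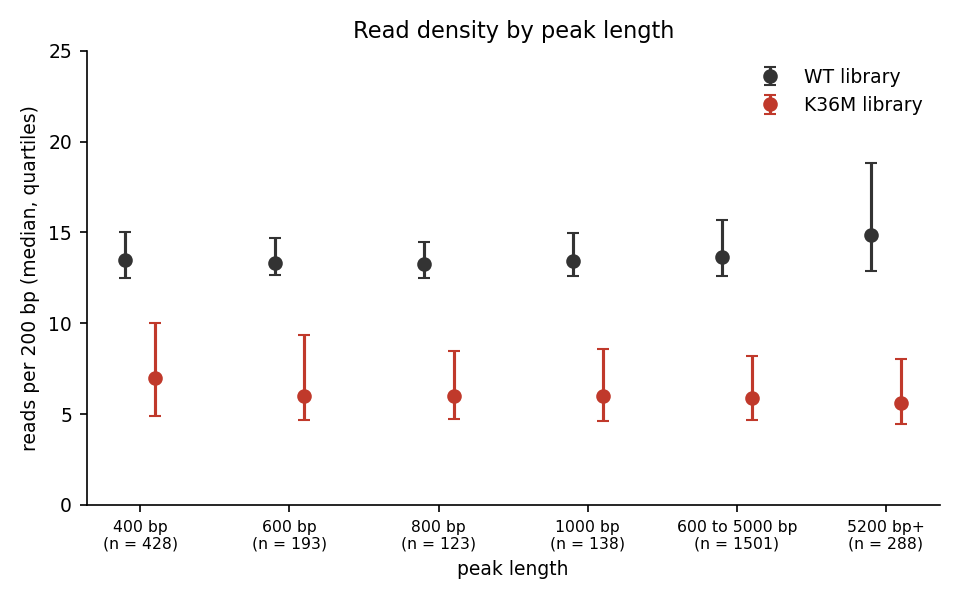
Reads per 200 bp by peak length in the WT and K36M libraries; points are medians over peaks and bars run from the lower to the upper quartile. The class of 600 to 5000 bp includes the 600, 800 and 1000 bp classes drawn separately. WT medians differ little between lengths, and the K36M median is 7.0 at 400 bp and 5.62 at 5200 bp or more.

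K36M signal also differed among 400 bp peaks of different WT signal. The 73 peaks with 32 or more WT reads had a median of 23 K36M reads and a summed ratio of 0.595 (0.562 to 0.630). The 95 peaks with 25 or 26 WT reads had a median of 12 K36M reads and a summed ratio of 0.406 (0.378 to 0.435). The 72 peaks with 24 or fewer had a median of 13 K36M reads and a summed ratio of 0.522 (0.483 to 0.564). The remaining classes lay between, at 0.448 (0.420 to 0.477) over 99 peaks with 27 or 28 WT reads and 0.471 (0.442 to 0.501) over 89 peaks with 29 to 31. The share at least 2-fold lower was highest in the class with 27 or 28 reads, at 69.7%, so which middle class is lowest depends on the measure. WT reads are the denominator of the ratio, so the classes are not independent of it.

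The 5 peaks of 400 bp with the strongest WT signal had ratios from 0.669 to 1.25. Strong WT peaks as a group were lower in K36M on the RPM scale. The 73 peaks with 32 or more WT reads, which include these 5, had a summed ratio of 0.595 (0.562 to 0.630). Among them, chr13:3351800-3352199 held 47 reads in WT and 14 in K36M. The highest WT value, 77 reads, was on chromosome 10 (chr10:99788800-99789199), with 93 reads in K36M and thus a ratio of 0.976 (0.714 to 1.34). On chromosome 7, chr7:7230800-7231199 held 71 reads in WT and 70 in K36M, with a ratio of 0.796 (0.564 to 1.12). On chromosome 4, chr4:50472600-50472999 held 58 and 90, which gives 1.25 (0.891 to 1.78). Each of these intervals holds 1. The next were chr4:116883400-116883799, with 58 and 48 reads and a ratio of 0.669 (0.446 to 0.997), and chr1:90173800-90174199, with 50 and 56 reads and a ratio of 0.905 (0.607 to 1.35). Of these 5 peaks, the interval lay below 1 at chr4:116883400-116883799 alone, and there its upper end was close to 1. They were chosen for their WT signal, which is the denominator of the ratio.

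The most K36M signal in a 400 bp peak was 146 reads on chromosome 15 (chr15:3568800-3569199), where WT had 27 reads, its median for this length. The chromosome 10 and chromosome 4 peaks with 93 and 90 K36M reads followed. Next was chr17:80606400-80606799 on chromosome 17, with 38 reads in WT and 79 in K36M. The fifth place was shared by chr1:180230200-180230599, with 28 and 70 reads, and the chromosome 7 peak with 71 and 70. Peaks with much K36M signal therefore came both from the strongest WT peaks and from peaks with ordinary WT signal.

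Among the 219 peaks with summed signal at or above the median of the 400 bp peaks, the highest ratio was that of chr15:3568800-3569199, 4.37 (2.88 to 6.85). On chromosome 3, chr3:11476600-11476999 held 22 and 69 reads and had 2.53 (1.55 to 4.30). Of the others, the chromosome 1 peak at 180230200 followed with 2.02 (1.29 to 3.25), and the chromosome 17 peak at 80606400 with 1.68 (1.13 to 2.54). These are the only 400 bp peaks whose interval lay above 1. The next ratios, 1.35 (0.840 to 2.19) at chr8:87370400-87370799 and 1.31 (0.770 to 2.28) at chr11:98064000-98064399, had intervals that hold 1. None of these 6 peaks had a longer peak within 10 kb; the nearest longer peaks were 123.2 to 1496.8 kb away. The ratios of these nearest longer peaks differed widely. The lowest was 0.161 beside the chromosome 1 site, 277.8 kb away, where reads went from 181 in WT to 36 in K36M. The highest was 1.30 beside the chromosome 8 site, with 457 and 734 reads. Those of the sites on chromosomes 11, 15, 3 and 17 lay between, at 0.259, 0.432, 0.661 and 0.696.

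At the other end of the same ranking, the lowest ratio was 0.135 (0.0464 to 0.323) at chr14:59782400-59782799, with 36 reads in WT and 6 in K36M. On the X chromosome, chrX:133642600-133642999 held 39 and 8 reads, which gives 0.166 (0.0669 to 0.360). On chromosome 16, chr16:20867800-20868199 held 33 and 7, which gives 0.171 (0.0640 to 0.394). Although their ratios differ, the intervals of these 3 peaks overlap widely. The others were chr15:42584000-42584399 (40 and 9 reads), chr4:80419200-80419599 (32 and 8 reads) and chr13:3351800-3352199 (47 and 14 reads). All 6 intervals lay wholly below 0.488, the ratio of the summed reads. They sat 7.6 to 16.8 kb from a longer peak, except for the X chromosome peak at 884.6 kb and the chromosome 13 peak at 6647 kb. The fewest K36M reads of any 400 bp peak, 2 against 32 in WT, were at chr8:46315600-46315999, which had too little summed signal for this ranking and was looked at after its values were seen.

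The 400 bp peaks lay farther from other peaks than longer peaks did. The median gap between the edges of a 400 bp peak and the nearest other peak was 122.3 kb, with quartiles of 21.4 and 494.8 kb. For all longer peaks together the median was 30.8 kb. The classes next in length were closer to the 400 bp peaks. The median was 96.6 kb for 600 bp peaks, with quartiles of 15 and 414.8 kb, and 69.6 kb for 800 bp peaks. A peak of any length lay within 10 kb of 69 of them (16.1%, 95% Wilson interval 12.9 to 19.9%). The same share was 21.2% (16.1 to 27.5%) for 600 bp peaks and 33.4% (31.3 to 35.6%) for all longer peaks. For 224 of the 400 bp peaks (52.3%) no other peak lay within 100 kb, and for 64 (15.0%) none within 1000 kb. The smallest gap in the table was 1200 bp, which 5 of the 400 bp peaks had. Every start and every length in the table was a multiple of 200 bp, so gaps are known to that step only. Neighbouring peaks are not independent, so the intervals on these shares are too narrow.

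**Figure D3:**
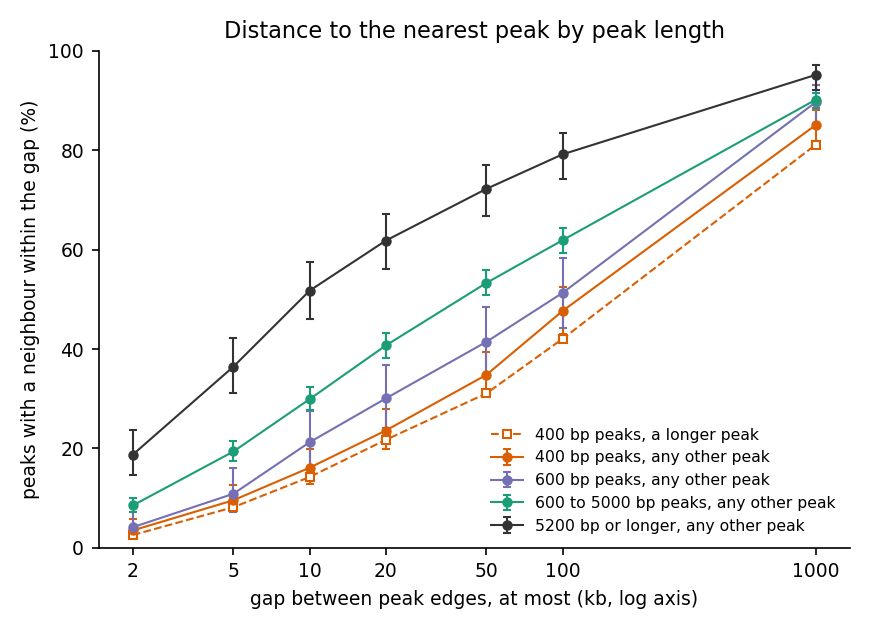
Share of peaks (vertical, %) whose nearest other peak lies within a gap (horizontal, kb, log axis), by peak length, with 95% Wilson intervals; the dashed line counts only longer peaks as neighbours of 400 bp peaks. The 400 bp curve is the lowest at each gap drawn, at 16.1% for 10 kb and 47.7% for 100 kb, and the interval of the 600 bp curve overlaps it at both.

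A longer peak lay beside 61 of the 428 short peaks, at a gap of at most 10 kb, which is 14.3% (11.3 to 17.9%). The share was 2.57% at a gap of up to 2 kb, 8.18% at 5 kb, 21.7% at 20 kb and 31.1% at 50 kb. For 600 bp peaks a peak longer than themselves lay within 10 kb in 17.1% (12.4 to 23.0%), and for all peaks in 15.7%. The share of short peaks beside a longer one was thus close to that of peaks in general, although more of the table counts as longer for them. Of the 61 peaks, 9 had a longer peak within 10 kb on both sides. Another 8 peaks had only other 400 bp peaks within 10 kb. Whatever the distance, the nearest other peak was longer for 349 of the 428 (81.5%), and 80.7% of the other peaks in the table are longer.

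The 60 distinct longer neighbours ranged from 600 to 14800 bp in length, and their median was 1800 bp, against 2000 bp for all longer peaks. Of the 61 short peaks, 13 lay beside a peak of 5200 bp or more and 6 beside a peak of 600 bp. The smallest gap, 1200 bp, was found beside longer peaks at 3 sites. At chr15:35986400-35986799 reads went from 25 to 14, and in its 1800 bp neighbour from 119 to 53. At chr15:39782200-39782599 they went from 24 to 7, and in its 5600 bp neighbour from 526 to 118. At chr2:154760600-154760999 they went from 31 to 28, and in its 1400 bp neighbour from 103 to 53. Gaps of 1400 bp were found at chr1:102229400-102229799 (27 and 4 reads, beside a 4000 bp peak with 344 and 88) and at chr9:14931200-14931599 (30 and 9 reads, beside a 3600 bp peak with 330 and 63). At each of these 5 sites the interval of the short peak overlapped that of its neighbour.

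Peaks beside a longer peak and those away from one had like signal. Both sets had a median of 27 reads in WT and 14 in K36M. The median log2 ratio was -1.21 (-1.41 to -0.99) for the 61 peaks beside a longer one and -1.10 (-1.19 to -0.98) for the other 367, so the intervals overlap. K36M was at least 2-fold below WT at 38 of the 61 (62.3%, 49.7 to 73.4%) and at 201 of the 367 (54.8%, 49.7 to 59.8%). Summed reads gave 0.450 (0.416 to 0.487) and 0.494 (0.479 to 0.510). Signal above WT was found at 4 of the 61 and 12 of the 367. By distance to the nearest longer peak, the median log2 ratio without a pseudocount was -1.78 over 11 peaks up to 2 kb, -1.41 over 50 at 2 to 10 kb, -1.42 over 119 at 10 to 100 kb, -1.26 over 167 at 100 kb to 1 Mb and -1.09 over 81 beyond. The summed ratios in the same order were 0.484 (0.400 to 0.583), 0.443 (0.406 to 0.483), 0.449 (0.424 to 0.475), 0.504 (0.481 to 0.528) and 0.541 (0.507 to 0.577). These intervals cover counting error and leave out the spread between peaks. They do not overlap between the second and the last class, while that of the nearest class overlaps both. The binomial intervals of the medians of the second and the last class do overlap, at -1.63 to -1.16 and -1.41 to -0.89. A single peak, chr15:3568800-3569199, gave 146 of the 1546 K36M reads of the last class. Across the 428 peaks the ratio and the gap had a Spearman rho of 0.11.

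**Figure D4:**
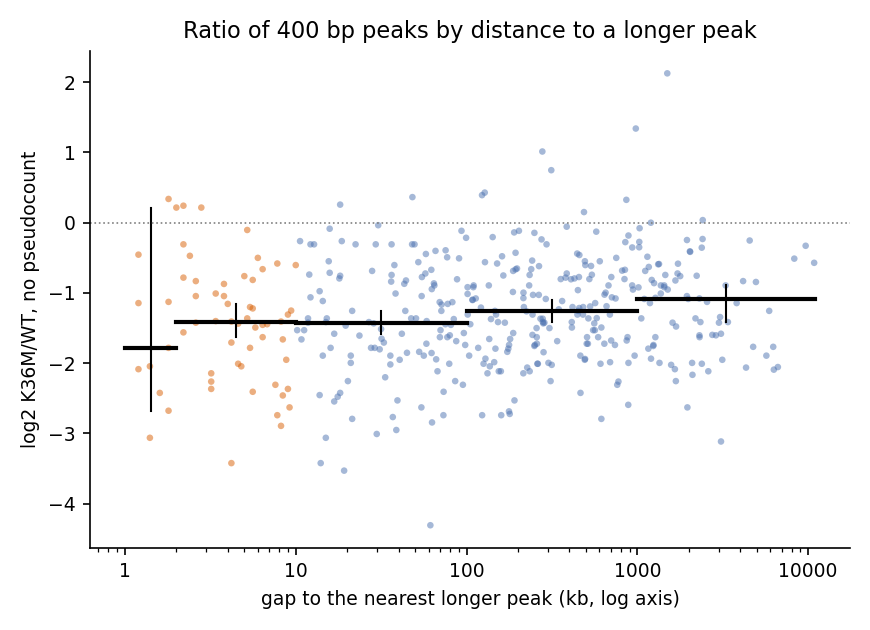
Log2 K36M/WT ratio without a pseudocount (vertical) of each 400 bp peak against the gap to the nearest longer peak (horizontal, kb, log axis); orange points have a longer peak within 10 kb. Horizontal bars are medians per distance class and vertical bars their 95% binomial intervals over peaks; the medians run from -1.78 in the nearest class (11 peaks) to -1.09 in the farthest.

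The ratios of short peaks and their longer neighbours went together more closely when the gap was small. Over the 61 peaks with a longer peak within 10 kb, the log2 ratios of both correlated with r = 0.66 (Pearson) and rho = 0.64 (Spearman). At 10 to 100 kb r was 0.43 over 119 peaks, at 100 kb to 1 Mb 0.18 over 167, and beyond 1 Mb -0.066 over 81. All pairs share the same libraries, and the same longer peak can serve more than 1 short peak. Leaving out the 6 pairs in which either ratio was above 1 gave an r of 0.55 over 55. Within 10 kb, the short peak had the higher ratio in 31 pairs and the lower in 30. The median log2 ratios were -1.41 for the short peaks and -1.49 for their neighbours. Summed reads gave a higher ratio for the short peaks, 0.450 (0.416 to 0.487) against 0.399 (0.388 to 0.411), with intervals narrowly apart. Up to 2 kb, over 11 short peaks, these were 0.484 (0.400 to 0.583) and 0.325 (0.302 to 0.349). At 2 to 10 kb they were 0.443 (0.406 to 0.483) and 0.415 (0.402 to 0.427), which overlap. These intervals cover counting error only, and long neighbours weigh most in their sum. In WT the short peak was the less dense in 40 of the 61 pairs, with medians of 13.5 and 14.3 reads per 200 bp.

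The intervals of short peak and neighbour were apart in 5 of the 61 pairs. The short peak kept more signal at chr11:26287000-26287399, with a ratio of 0.568 (0.299 to 1.06) beside a neighbour at 0.173 (0.115 to 0.256). It also kept more at chr19:60302200-60302599, with 0.707 (0.374 to 1.33) beside 0.239 (0.204 to 0.279), and at chr2:25079800-25080199, with 1.18 (0.714 to 1.99) beside 0.496 (0.347 to 0.703). It kept less at chr15:39094000-39094399, with 0.150 (0.0450 to 0.394) beside 0.460 (0.399 to 0.530). The last pair, chr4:131830200-131830599 with 0.546 (0.307 to 0.955) beside 1.13 (0.961 to 1.34), was barely apart, as were the pairs at chr15:39094000-39094399 and chr2:25079800-25080199. These 5 were picked out after their values were seen.

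**Figure D5:**
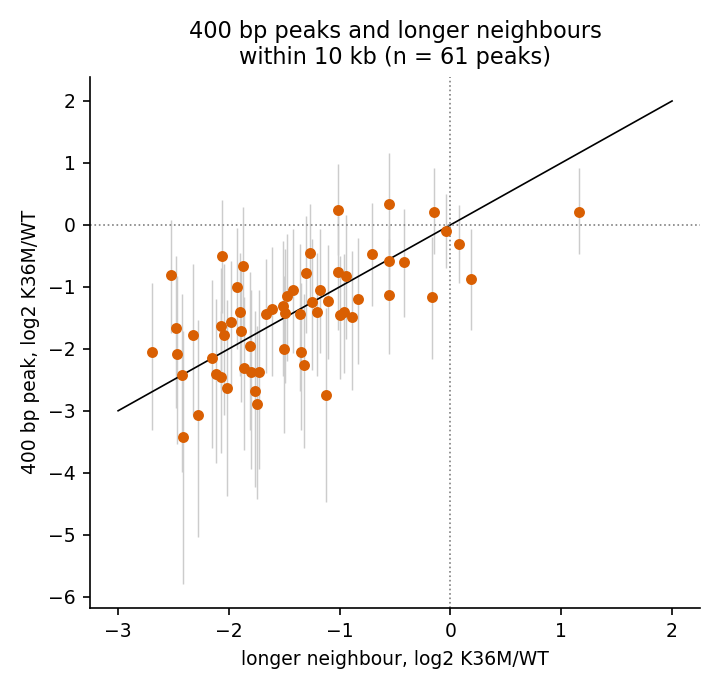
Log2 K36M/WT ratio of the 61 short peaks (vertical) against that of the nearest longer peak within 10 kb (horizontal), without a pseudocount; grey bars are 95% exact intervals of the short peak's ratio from counting error, and the line marks equal ratios. The points lie on both sides of the line, 31 above and 30 below, and r is 0.66.

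At the far end, 4 short peaks were the most isolated. The largest gap, 10.8 Mb, was that of chr1:120355600-120355999, with 30 reads in WT and 25 in K36M. The chromosome 7 peak at 7230800, the second strongest in WT, was 9.58 Mb from the next peak, itself of 400 bp. At chr4:145221400-145221799, 8.29 Mb from any other, reads went from 38 to 33. Each of these 3 had a ratio whose interval holds 1. The chromosome 13 peak at 3351800, 6.65 Mb from the next, went from 47 to 14 reads, which gives 0.241 (0.122 to 0.445). All 4 ratios were below 1, and the intervals at chr1:120355600-120355999 and chr4:145221400-145221799 also hold 0.488, the ratio of the summed reads.

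Short peaks also lay near each other, in 7 pairs within 10 kb. At chr16:26745800-26746199 reads went from 23 to 9, and 1200 bp further on, at chr16:26747400-26747799, from 25 to 5. On chromosome 15, 3 short peaks starting at 35980000, 35986400 and 35996200 formed a row, with 25, 25 and 29 reads in WT and 18, 14 and 11 in K36M. On chromosome 2, the pair starting at 176890400 and 176899200 had 28 and 32 reads in WT and 32 and 25 in K36M. All 7 of these peaks had ratios below 1. The interval holds 1 at both peaks of the chromosome 2 pair, with ratios of 0.923 (0.538 to 1.59) and 0.631 (0.359 to 1.10), and at the first peak of the chromosome 15 row, with 0.582 (0.299 to 1.11).

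By chromosome, 400 bp peaks made up between 6.35% of peaks on chromosome 13 (4 of 63) and 26.1% on chromosome 4 (37 of 142), next to 25.6% on chromosome 19 (21 of 82). The 95% Wilson interval was 2.50 to 15.2% for chromosome 13 and 19.5 to 33.8% for chromosome 4. Chromosome 2 held the most short peaks, 46 of its 221, and chromosome 15 held 43 of 213, including 13 of the 61 beside a longer peak. On chromosomes 6, 7, 8, 13, 18 and X none of the short peaks lay within 10 kb of a longer one. Among chromosomes with at least 10 short peaks, the median log2 ratio ran from -1.37 on chromosome 7 (10 peaks) to -0.80 on chromosomes 6 and 17 (17 and 13 peaks). The 16 short peaks above WT lay on 14 chromosomes, with at most 2 on each. At 10 of the 16 the nearest longer peak was over 100 kb away, and at 2 of the 16 that longer peak was above WT as well.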

How the data were processed

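The series holds 3 libraries, of which 2 Cbx2 ChIP libraries, 1 per group, have a column in the deposited peak table; input reads were not analysed here. Alignment used Bowtie 1.0.0 and the mm9 build, per the submitters' processing notes. The peak caller, the libraries used for calling and the handling of duplicates were not given in the sources used here. The deposited values are headed RPKM but are RPM, that is, reads per 1000000: all are whole multiples of 1 step per column, within 1e-06 of a read, at every peak length, which gives 29278813 reads in WT and 36243012 in K36M. The column headed WT was taken as the Cbx2 library because the table is named for Cbx2. The table holds 0 other columns of samples.

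Coordinates are those of the table. A gap is the number of bases between peak edges. Log2 ratios are of RPM plus a pseudocount of 0.1, or without one where stated. Ratios carry exact 95% intervals, shares Wilson intervals and medians binomial order-statistic intervals. Calculations (Python 3.11.15, SciPy 1.17.1) were tested on simulated reads. Peaks were named by rule: the 6 lowest and 6 highest ratios among 400 bp peaks at or above the median summed signal, the 5 highest in each library, the 4 nearest to a longer peak and the 4 most isolated, with ties. Classes of WT reads, pairs of short peaks, shares by chromosome and peaks at a lowest read number were looked at after the values were seen. The 400 bp rule, classes and alternatives were chosen with earlier results of these data known.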

Additional observations from a re-analysis of the deposited data

How the results depend on the processing

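Scaling decided the direction for the 400 bp peaks. Setting the medians, upper quartiles or sums over all peaks equal multiplies K36M by 2.89, 2.85 or 2.42. The median log2 ratio then moved from -1.12 to 0.20, 0.18 or -0.030, the summed ratio from 0.488 to 1.41, 1.39 or 1.18, the peaks at least 2-fold lower from 239 to 20, 21 or 31, and those at least 2-fold higher from 2 to 58, 54 or 27. The median difference from longer peaks, with scaling added to it after seeing the data, was 0.26, 0.26 or 0.28 in the same order. These scalings multiply background reads as well.

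The median was -1.29 when the pseudocount was 0.01 and -0.48 when it was 1, and the larger one left 0 peaks at least 2-fold lower, 1 higher and a difference from longer peaks of 0.60 instead of 0.40. With no pseudocount, added after seeing the data, the median was -1.31 and the difference 0.28. Peaks at or above the median level, fewer and chosen partly on K36M, had a median of -0.71 with 66 at least 2-fold lower. A limit of 1.5-fold counted 4 higher, one of 3-fold counted 91 lower and 1 higher, and an interval wholly past 2-fold left 49 lower and 1 higher. The share beside a longer peak was 2.57, 8.18, 21.7 and 31.1% at gaps of 2, 5, 20 and 50 kb, and 11.2% when longer meant 1000 bp or more. Other values stayed within their interval or within 1.5 times, including all alternatives without chromosome 13. The difference between peaks beside a longer one and the others, -0.11, kept its sign in every alternative run. Its interval, taken from the ends of the intervals of both medians, was -0.43 to 0.20 and held 0 in every alternative as well. These runs reuse the same peaks, and the scalings were not run for this difference, so the constant sign does not set it apart from 0. Of the 24 named peaks, 8 changed sign under each of the 3 scalings. All of them were less than 2-fold lower in RPM when the pseudocount is 0.1. Another pseudocount cannot change the sign of a single peak, because the same amount is added to both libraries.

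No paired analysis was possible because there is a single ChIP library per group, so no replicate could be left out. Depth also limits these peaks: with medians of 27 and 14 reads, 136 of 428 ratios could not be told from 1.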
